A study of Homo sapiens with 6 samples.

Results

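The subject is 4 growth genes that are commonly linked to the let-7 microRNAs, each read by 1 probe: MYC (ILMN_2110908), CCND1 (ILMN_1688480), CCND2 (ILMN_2067656) and IGF2BP3 (ILMN_1807423). They were chosen by probe identifier and gene, with earlier results of these data known, and are 4 of the 48803 probes on an Illumina human HT-12 BeadChip. The gene names come from that choice, because the deposited values carry no gene names. All lines came from H1299, a long-used cell line of non-small cell lung carcinoma whose tissue label is lung adenocarcinoma. The 6 lines, with 1 array each, were 2 clones that stably carry a Lin-28B transfection, 1 control line for these, 2 clones that stably carry an Ago2 transfection and 1 control line for those. All lines were growing exponentially when RNA was taken. The labels do not say what the control lines carry, which promoter drives the transfected genes, or how much LIN28B or AGO2 protein the clones make. The probes of LIN28B and AGO2, and markers of the labelled tissue, were not analysed here because no probe could be named for them. The labels of the clones were thus not checked against the transfected genes.

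The let-7 microRNAs guide Argonaute proteins such as AGO2 to matching sites in messenger RNAs, which lowers the stability or translation of those messages. LIN28B binds let-7 precursors and blocks their maturation, and it is known as an oncofetal protein that is re-expressed in some tumours. MYC is a transcription factor that drives growth and ribosome production. CCND1 and CCND2 encode D-type cyclins, which activate CDK4 and CDK6 in G1. IGF2BP3 encodes an RNA-binding protein of fetal tissue and tumours that stabilizes bound messages. All of these genes have been described as let-7 targets. Neither let-7 nor any protein was measured in these data.

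The microRNA sequences below show the seed, bases 2 to 8 from the 5′ end, which is the main but not the only part of let-7 that can pair with a target site. Target sites in the 4 genes were not analysed here. In the RefSeq table for GRCh38.p14, 14 mature entries with 11 names share the seed GAGGUAG. The following 4 differ outside the seed, which is in capitals.
hsa-let-7a-5p: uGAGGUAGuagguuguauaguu
hsa-let-7d-5p: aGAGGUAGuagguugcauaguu
hsa-let-7g-5p: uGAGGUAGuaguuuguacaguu
hsa-miR-98-5p: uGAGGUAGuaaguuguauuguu
The first is encoded on chromosome 9 among other places, at chr9:94175962-94175983 on the plus strand, and the last at chrX:53556299-53556320 on the minus strand.

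LIN28 proteins are known to bind a GGAG motif in the loop of let-7 precursors. Between the 2 arms, 9 of the 12 hairpins of the let-7 and miR-98 genes hold these letters. The following 2 hairpins show a precursor with and one without them, with the seed and any GGAG after the first arm in capitals.
MIRLET7G: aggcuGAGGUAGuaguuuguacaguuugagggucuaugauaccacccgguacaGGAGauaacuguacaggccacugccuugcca
MIRLET7A3: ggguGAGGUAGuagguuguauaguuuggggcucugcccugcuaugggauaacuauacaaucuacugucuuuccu
They lie at chr3:52268278-52268361 on the minus strand and chr22:46112749-46112822 on the plus strand. A match is a description of the letters, and its absence says nothing of binding.

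Levels below are probe intensities as deposited, which by their range are on a linear scale. The lowest value of an array lay between 26.1 and 43.4, so a background level was taken to remain in them. Differences are on the log2(intensity + 32) scale after quantile normalization, which understates differences of dim probes. The median intensity of an array lay between 61.7 and 67.04, so a probe near that level cannot be told from background here. Of all probes, 28035 lay above the median of their array on at least 2 arrays and were tested, among them all 4 members. The members were above the median on 6 of 6 arrays, except CCND2, which was above it on 5. Adjusted p-values are from limma with Benjamini-Hochberg adjustment over the 28035 probes. The spread in that fit comes from the pairs of clones, drawn toward a prior estimated over all tested probes. That prior weighs 2.54 degrees of freedom against 2 residual ones. The clone SD of each member was above the prior SD of 0.105. The SEs and p-values of the members are thus smaller than their own clones alone would give. Each control is 1 array, and its spread was taken to equal that of the clones. The control lines were themselves far apart: 8.21% of tested probes differed at least 2-fold between them.

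With all 6 arrays in the fit, none of the 4 genes passed the adjusted threshold of 0.05 in any comparison. What the arrays do show is a different pattern for each gene. CCND1 was higher in all 4 clones than in either control line, a position that 7.07% of tested probes shared. IGF2BP3 was lower in all 4 clones than in either control line, by less, as were 6.95% of tested probes. MYC was highest in the Ago2 control, and the Lin-28B clones lay on either side of their control. CCND2 differed most between the 2 Lin-28B clones.

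**Figure D1:**
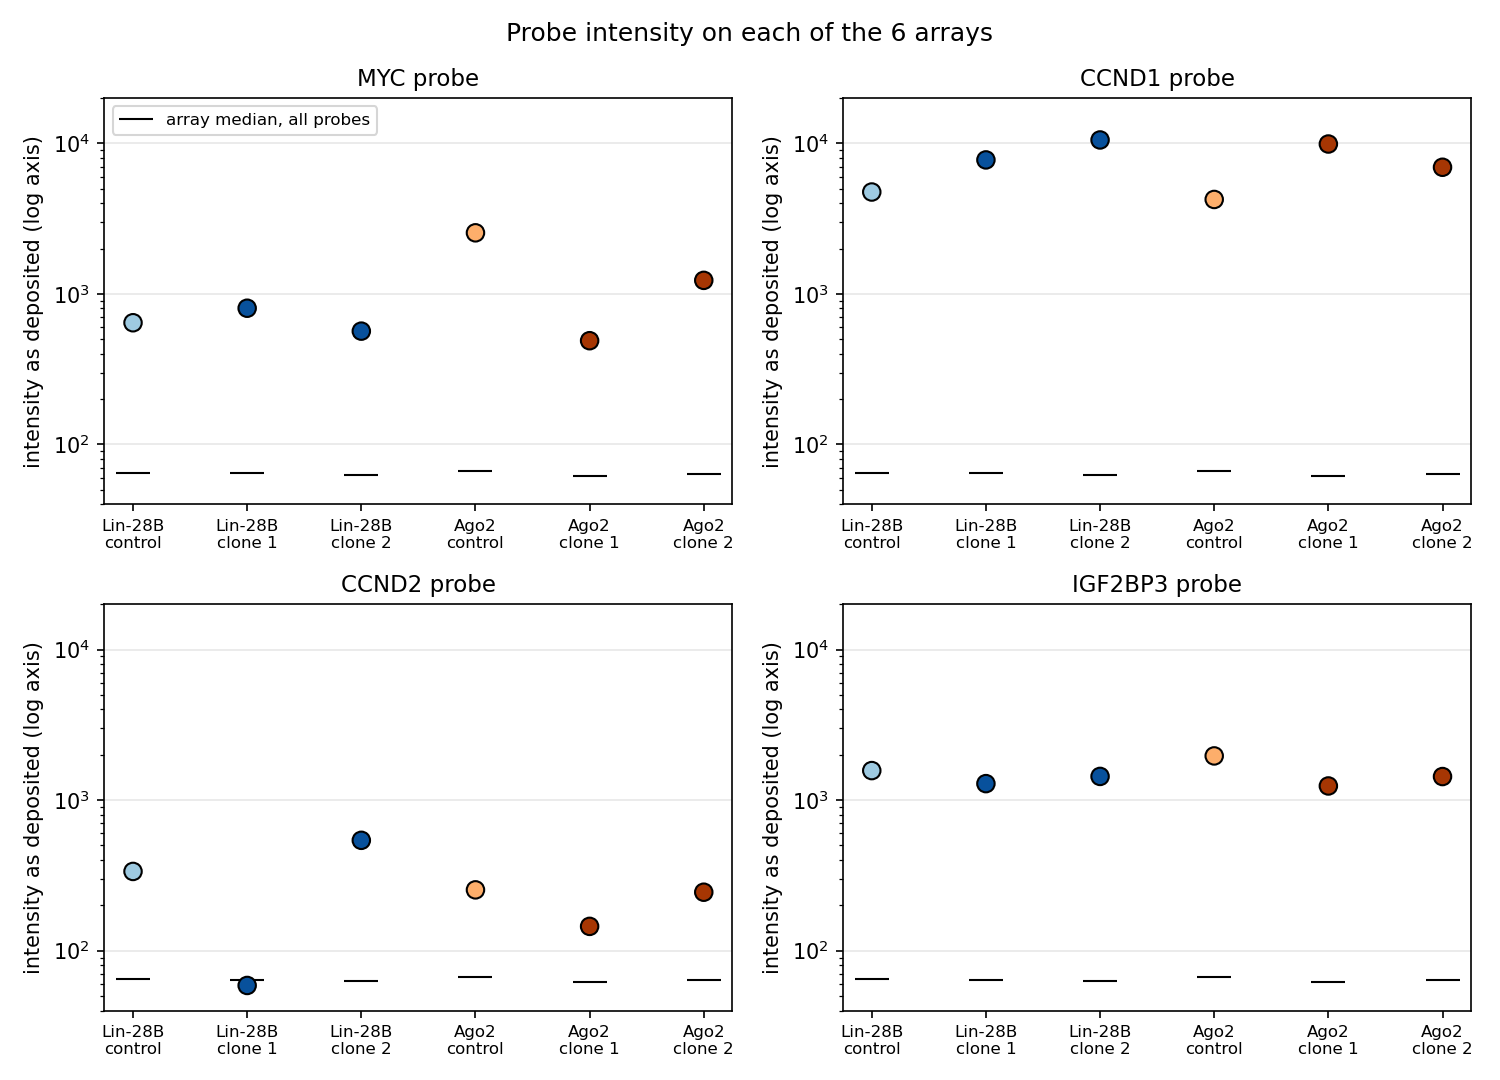
Deposited intensity of each member probe (log axis) on the 6 arrays, 1 point per array, with a dash at the median of all probes of that array. CCND1 lies between 6933 and 10526 in the clones and at 4747 and 4236 in the controls, and CCND2 in Lin-28B clone 1 lies at 58.7, below the array median of 64.2.

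MYC is the transcription factor among the members. Its probe measured 643 in the Lin-28B control, 802 in Lin-28B clone 1 and 565 in Lin-28B clone 2. The clones thus lay on either side of their control, as did the clones for 20.1% of all tested probes. It measured 2543 in the Ago2 control, 488 in Ago2 clone 1 and 1229 in Ago2 clone 2. Both Ago2 clones lay below their control, and the Ago2 control was the highest of the 6 arrays, a position it held for 23.7% of tested probes.

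The mean MYC difference between the Lin-28B clones and their control was -0.045 ± 0.55 on the log2 scale (SE, adjusted p = 0.975 in limma). Its mean intensity in these clones was 684 ± 168 (SD, n = 2). In the Ago2 clones the mean was 859 ± 524 (SD, n = 2), and the log2 difference from their control was -1.62 ± 0.55 (SE, adjusted p = 0.287 in limma), a 3.07-fold lower level. A difference of that size or more was seen for 0.385% of tested probes. Against the Lin-28B control in place of their own, the Ago2 clones differed by 0.16 on the log2 scale, so the direction depends on which control is used, and with both controls pooled the value was -0.73. The Lin-28B value depends on the control as well: it was -1.82 against the Ago2 control and -0.93 with both controls pooled. The Ago2 control was 3.42-fold higher in MYC than the Lin-28B control (log2 difference of Lin-28B minus Ago2 control -1.77 ± 0.63 SE, adjusted p = 0.186 in limma, with no replicate of either control).

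The 2 Ago2 clones were themselves apart in MYC. Clone 2 was 2.38-fold higher than clone 1, with a log2 gap of 1.25. A gap of at least 2-fold between these clones was seen for 336 probes, or 1.20% of those tested, and MYC ranked 150 among all gaps. In the Lin-28B clones the gap was -0.45 (clone 2 minus clone 1), a size that 4.53% of tested probes reached. In the order of group means, the Ago2 control stood 1.62 above the Ago2 clones on the log2 scale, more than the clone SD of 0.66. The Ago2 clones, the Lin-28B control and the Lin-28B clones followed with steps of 0.16 and 0.045, which are smaller than that SD. Here and below, the clone SD is the spread of single clones and not the error of a step, so it is no test of a step.

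CCND1 is a D-type cyclin that couples growth factor signals to the G1 phase. Its probe measured 4747 in the Lin-28B control, 7757 in Lin-28B clone 1 and 10526 in Lin-28B clone 2. It measured 4236 in the Ago2 control, 9893 in Ago2 clone 1 and 6933 in Ago2 clone 2. The lowest clone was thus above the higher of the controls, whereas the clones of the 2 transfections overlapped.

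The mean CCND1 intensity was 9142 ± 1958 (SD, n = 2) in the Lin-28B clones, 1.63-fold their control after normalization, with a log2 difference of 0.71 ± 0.33 (SE, adjusted p = 0.343 in limma). In the Ago2 clones it was 8413 ± 2093 (SD, n = 2), 2.00-fold their control, with a log2 difference of 1.00 ± 0.33 (SE, adjusted p = 0.274 in limma). Each of these values used a different control array. For Lin-28B, 9.50% of tested probes differed by at least as much, and for Ago2 2.36%. With a median shift or no normalization the Lin-28B value was 0.95 and 0.92, and the Ago2 value was 1.03 and 0.96. The distance between the 2 values thus depends on the scaling. With quantile normalization, the Lin-28B value was 0.44 without Lin-28B clone 2 and 1.11 with the control of the other transfection. With that exchange the Ago2 value was 0.60. In the order of group means, the Lin-28B clones and the Ago2 clones were 0.11 apart on the log2 scale, less than the clone SD of 0.39. The Lin-28B control lay 0.60 below the Ago2 clones, more than that SD, and the SE of this difference in limma was 0.33. The controls were 0.40 apart, and with a median shift or no normalization 0.20 and 0.16 apart, less than the clone SD of 0.35 and 0.34 under those scalings.

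All 4 clones lay above both controls for 7.07% of tested probes and below both for 6.95%, which is the background against which CCND1 and IGF2BP3 have to be read. For CCND1 the gap between the lowest clone and the higher control was 0.32 on the log2 scale, and 88 probes had a gap of this size or more in the same direction. The comparison of the 4 clones with both controls was chosen after these values were seen. In it the log2 difference of CCND1 was 0.85 ± 0.23 (SE, adjusted p = 0.264 in limma), with a 95% confidence interval from 0.24 to 1.47 before any adjustment. In this comparison 0.00% of tested probes passed the adjusted threshold, and 13.0% passed at an unadjusted 0.05. The position of CCND1 above both controls was the same with offsets of 100 or none, and with a median shift, cyclic loess or no normalization.

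**Figure D2:**
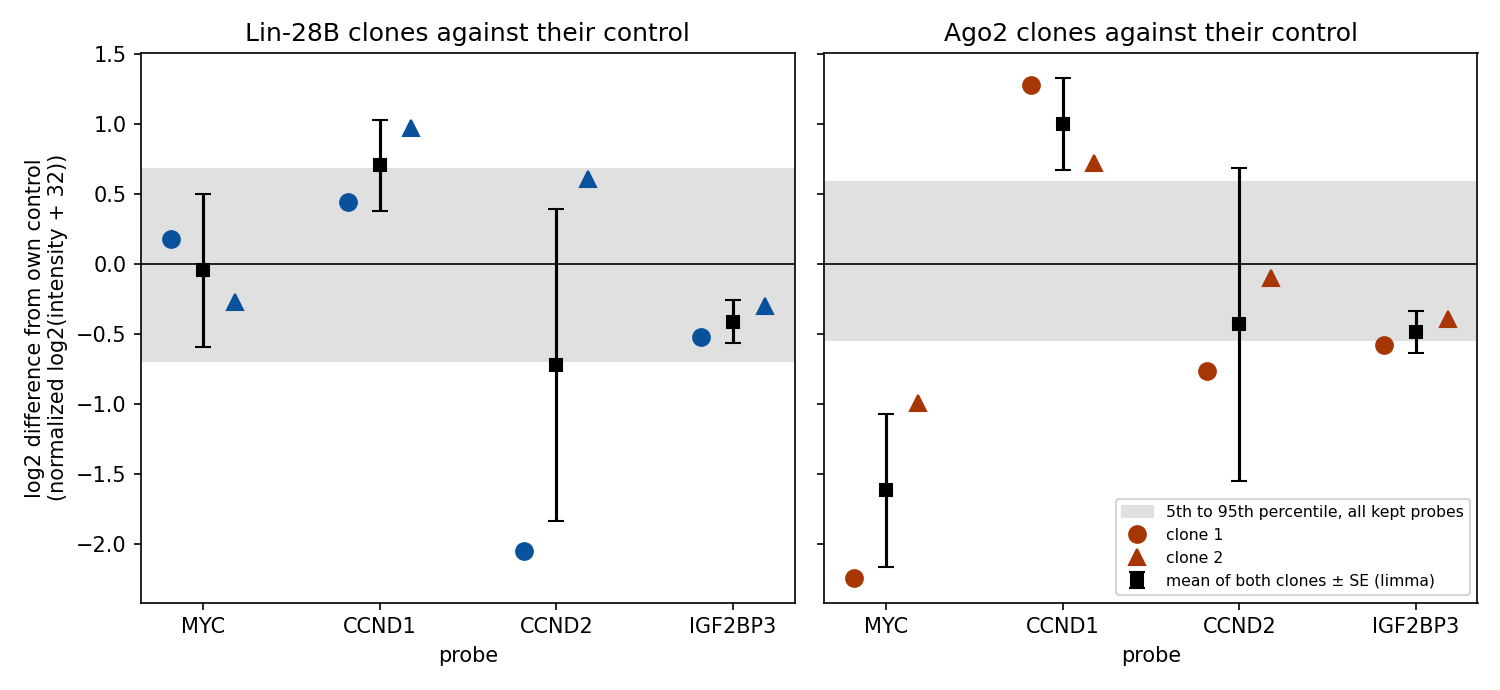
Log2 difference of each clone from its own control (circle, clone 1; triangle, clone 2) with the mean and its SE from limma (squares), beside the 5th to 95th percentile of the mean difference over all tested probes (grey). The Ago2 clones lie at -2.24 and -0.99 for MYC and at 1.28 and 0.72 for CCND1, and the Lin-28B clones at -2.05 and 0.61 for CCND2.

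CCND2 is the other D-type cyclin among the members. Its probe measured 336 in the Lin-28B control, 58.7 in Lin-28B clone 1 and 540.4 in Lin-28B clone 2. Clone 1 was below the median of its array (64.2), while clone 2 was the highest of the 6 arrays. It measured 253 in the Ago2 control, 145 in Ago2 clone 1 and 244 in Ago2 clone 2. Both Ago2 clones were below their control, clone 2 by 0.10 on the log2 scale.

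The gap between the Lin-28B clones was the largest feature of CCND2. Clone 2 was at 8.65 times the median of its array, whereas clone 1 was not above the median of its own. The log2 gap between them was 2.66 after normalization, which is not a measured ratio of the messages, because clone 1 cannot be told from background. Only 65 of the 28035 tested probes (0.232%) were at least 2-fold apart between these clones, and CCND2 ranked 2 among all gaps. The size and rank depend on the offset: the gap was 2.01 with an offset of 100 (rank 3) and 3.21 with no offset (rank 1). In the Ago2 clones the gap was 0.66 in the same direction of clone numbers, a size that 4.23% of tested probes reached. Clone numbers of different transfections have no stated relation.

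Because of this gap the mean of the Lin-28B clones describes neither of them. Their mean CCND2 intensity was 299.6 ± 341 (SD, n = 2), and the log2 difference from their control was -0.72 ± 1.12 (SE, adjusted p = 0.787 in limma). Without Lin-28B clone 1 it was 0.60, and without Lin-28B clone 2 it was -2.05. The Ago2 clones had a mean of 195 ± 70.3 (SD, n = 2) and a log2 difference of -0.43 ± 1.12 (SE, adjusted p = 0.901 in limma), which was -0.10 without Ago2 clone 1 and -0.76 without Ago2 clone 2. The SE of the Ago2 value is as wide because the fit shares 1 spread between both pairs of clones. In the order of group means no step reached the clone SD of 1.37, the widest step being 0.37.

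**Figure D3:**
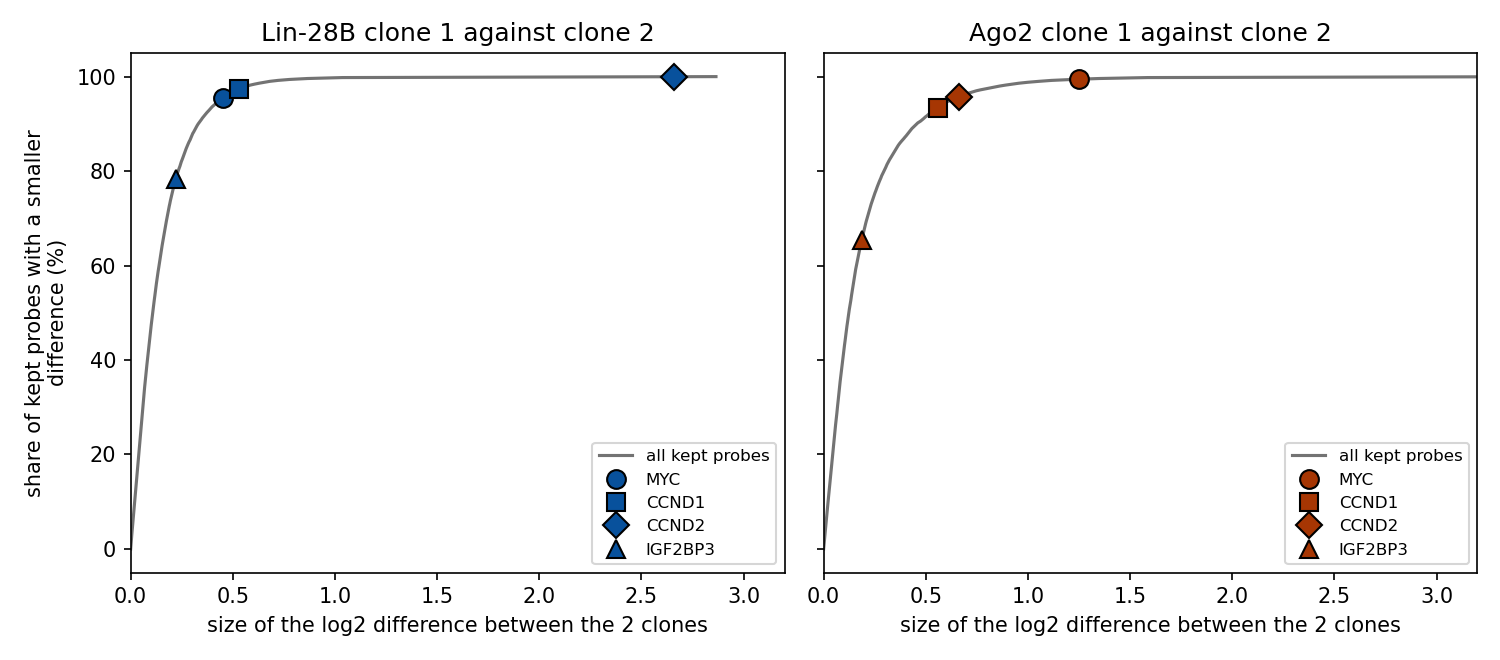
Size of the log2 difference between the 2 clones of a transfection (x axis) against the share of tested probes with a smaller difference (y axis, %), with a curve for all tested probes and a marker for each member. CCND2 lies at 2.66 for the Lin-28B clones, at the far end of the curve, and MYC lies at 1.25 for the Ago2 clones.

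IGF2BP3 is the RNA-binding protein of the set and the steadiest of the 4 over the arrays. It measured 1570.1 in the Lin-28B control, 1286 in Lin-28B clone 1 and 1436 in Lin-28B clone 2. It measured 1965 in the Ago2 control, 1241 in Ago2 clone 1 and 1433 in Ago2 clone 2. The highest clone was below the lower control in deposited intensity and under each scaling tried. With quantile normalization this position was shared by 6.95% of tested probes.

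The mean IGF2BP3 intensity was 1361 ± 106 (SD, n = 2) in the Lin-28B clones, with a log2 difference from their control of -0.41 ± 0.15 (SE, adjusted p = 0.247 in limma), 1.33-fold lower. With a median shift in place of quantile normalization this value was -0.18, and without normalization it was -0.20, so its size depends on the scaling. In the Ago2 clones the mean was 1337 ± 136 (SD, n = 2) and the log2 difference was -0.49 ± 0.15 (SE, adjusted p = 0.259 in limma), 1.40-fold lower. Differences of at least this size were common: 21.6% of tested probes reached the Lin-28B value and 13.2% the Ago2 value. In the comparison of the 4 clones with both controls, chosen after these values were seen, the log2 difference was -0.45 ± 0.11 (SE, adjusted p = 0.229 in limma). The gap between the highest clone and the lower control was 0.30 after quantile normalization, and 87 probes below both controls had a gap of this size or more. In deposited intensity the lower control was only 1.09-fold the highest clone, so the size of this gap depends on the scaling too.

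The range of IGF2BP3 over the 6 arrays was 0.60 on the log2 scale, against a median range of 0.37 over tested probes. For MYC and CCND1 it was 2.24 and 1.37, and a range that wide was seen for 0.631% and 5.16% of tested probes. For CCND2 the range equals the gap between the Lin-28B clones and shares its dependence on the offset, from 2.01 with an offset of 100 to 3.21 with none. In the order of group means of IGF2BP3, the controls differed by 0.076, less than the clone SD of 0.14. With a median shift or no normalization they differed by 0.29 and 0.32, with the Ago2 control higher, which is more than the clone SD of 0.13 under either. The SEs of these 2 differences in limma were 0.16 and 0.17, with 1 array for each control. The step from the Lin-28B control to the Ago2 clones was 0.41.

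The IGF2BP3 promoter is shown because MYC, another member, is known to bind the E-box CACGTG. Of the 4 genes, 1 matched by symbol in the RefSeq promoter table. The 250 bases before its start, at chr7:23470492-23470741 of GRCh38.p14 on the minus strand, hold this motif 2 times, beginning 174 and 146 bases before the start (capitals). The motif reads the same on both strands.
IGF2BP3 promoter: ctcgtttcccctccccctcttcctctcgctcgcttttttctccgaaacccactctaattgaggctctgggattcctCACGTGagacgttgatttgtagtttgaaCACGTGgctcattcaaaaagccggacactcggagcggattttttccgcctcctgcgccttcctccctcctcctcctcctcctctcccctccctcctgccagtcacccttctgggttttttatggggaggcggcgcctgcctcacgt
Among 35116 windows of this length, 6.34% hold the motif and 0.535% hold it at least 2 times. A match describes the letters and is not a binding site shown by these data.

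Over the 4 genes, the comparison of the Lin-28B clones with their control gave 0 calls, where 1.65% of tested probes were called, and 1 of 4 genes (IGF2BP3) passed at an unadjusted 0.05, where 19.5% of tested probes did. Their median log2 difference was -0.23, against 0.016 over all tested probes. The Ago2 comparison gave 0 calls, where 0.00% of tested probes were called in limma, and 3 of 4 genes (MYC, CCND1 and IGF2BP3) passed at an unadjusted 0.05, where 15.1% of tested probes did. Their median log2 difference was -0.46, against -0.0081 over all tested probes. Because the genes were chosen with earlier results known and share 1 control array in each comparison, these shares and medians are no test of the set. Both clones lay above their control for CCND1 alone of the 4, as they did for 42.2% of tested probes in the Lin-28B and 34.9% in the Ago2 comparison. Both Lin-28B clones lay below their control for IGF2BP3, as for 37.7% of tested probes. They lay on either side of it for MYC and CCND2, as for 20.1% of tested probes. Both Ago2 clones lay below theirs for MYC, CCND2 and IGF2BP3, as for 39.0%, and they lay on either side of it for none of the 4, against 26.1%. In both comparisons CCND1 was the 1 gene above the control and the other 3 means were below it. The mean for MYC in the Lin-28B comparison, -0.045 from the control, was above it by 0.088 with a median shift and by 0.065 without normalization.

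The 2 transfections were also compared directly, which uses no control array. Here each difference of means was smaller than its SE, which does not show that the genes were alike in both. The log2 difference of Lin-28B minus Ago2 clones was -0.20 for MYC (95% confidence interval from -1.39 to 0.99). It was 0.11 for CCND1 (from -0.60 to 0.82) and 0.063 for CCND2 (from -2.36 to 2.48). It was -6.0e-05 for IGF2BP3 (from -0.33 to 0.33). The interval of IGF2BP3 is the narrowest, and that of CCND2 leaves room for differences of several fold in either direction. The adjusted p-values in limma were between 0.977 and 1.00, and 0 of 4 genes passed at an unadjusted 0.05, where 6.96% of tested probes did. The adjusted threshold was passed by 0.00% of tested probes.

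The difference between the 2 effects, each taken against its own control, was 1.57 ± 0.78 for MYC on the log2 scale (SE, adjusted p = 0.339 in limma). This test called 3.81% of tested probes and 0 of the 4 genes, and at an unadjusted 0.05 it passed 22.1% of tested probes and 0 of the 4. It is made up of the direct difference of -0.20 between the clones and the gap of 1.77 between the single control arrays. Without Ago2 clone 2 the MYC value was 2.20 with an adjusted p of 0.0294, and without either Ago2 clone in turn the gap between the controls passed too, with adjusted p-values of 0.0185 and 0.0198 in limma. Those fits take their spread from the Lin-28B clones and the pooled prior, since the remaining Ago2 clone has no partner. For CCND1, CCND2 and IGF2BP3 the differences of effects were -0.30, -0.29 and 0.076, with adjusted p-values between 0.781 and 0.945. These values depend on the scaling and on single clones: with a median shift or no normalization CCND1 was -0.083 and -0.038 and IGF2BP3 was 0.30 and 0.34, and CCND1 ran from -0.59 to -0.0085 with 1 clone left out. Between the controls 5.97% of tested probes and 0 of the 4 genes were called, and at an unadjusted 0.05 24.4% of tested probes and 1 of the 4 (MYC) passed.

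**Figure D4:**
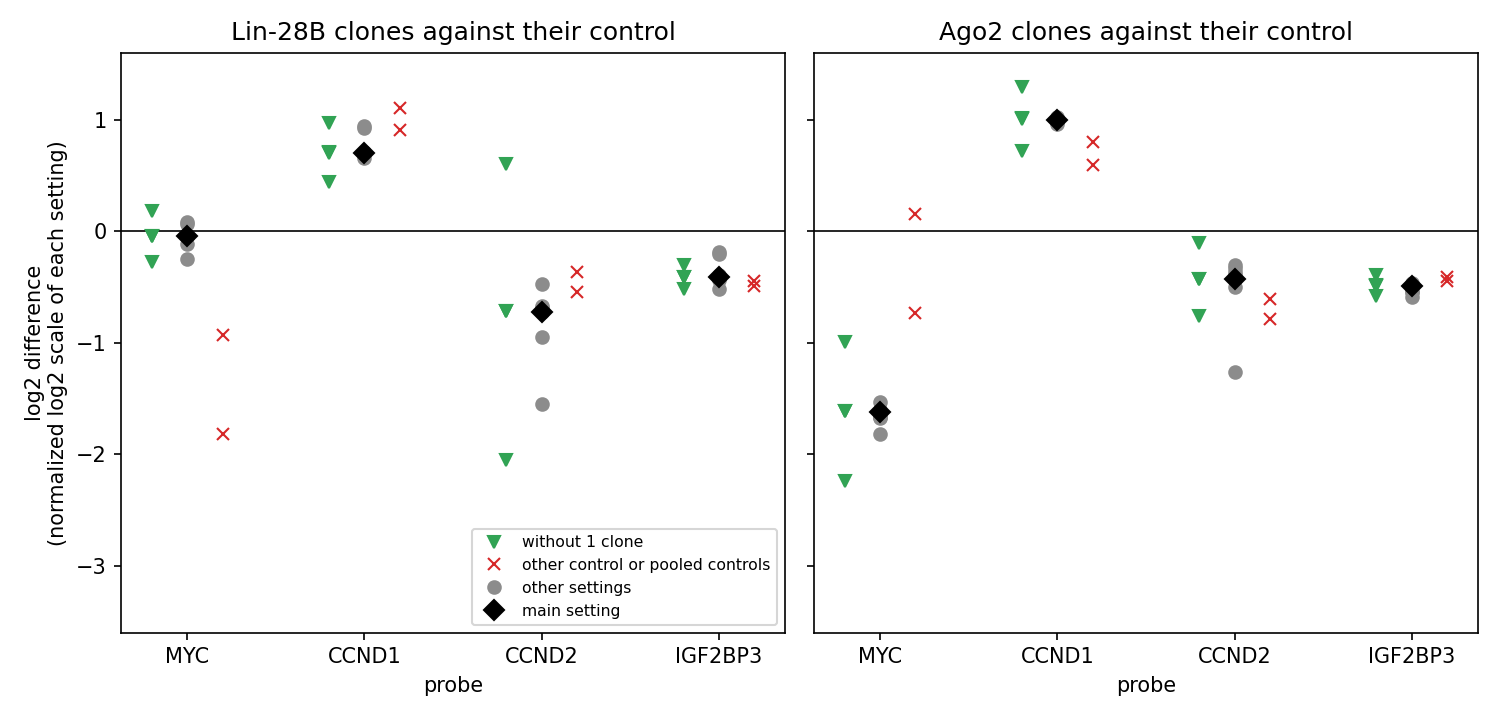
Log2 difference of the clones from their control for each member under the main setting (diamond), without 1 clone (triangles), with the other control or pooled controls (crosses) and under the other settings (circles). CCND1 stays above 0 and IGF2BP3 below 0 in all of them. MYC spans -1.82 to 0.18 in the Lin-28B clones and -2.24 to 0.16 in the Ago2 clones, and CCND2 in the Lin-28B clones spans -2.05 to 0.60.

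The likeness of other probes to each gene was counted over the 6 arrays as a Pearson correlation of at least 0.95 of normalized log2 values. MYC had 99 such probes, IGF2BP3 52, CCND1 43 and CCND2 12, against a median of 61 per tested probe (quartiles 38 and 115). CCND2 was thus followed by fewer probes than most. With 6 arrays that share clones of 1 parent line, these counts describe the arrays only, and the probes are not named here.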

How the data were processed

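The values used are the probe intensities that the authors deposited, linear and as 1 table of 48803 probes on 6 HT-12 arrays. Biotinylated cRNA was made with an Ambion MessageAmp kit from Trizol-extracted RNA, per the labels' protocols. For the scanner software, background handling, normalization and detection calls, the labels say nothing. Background left in dim probes compresses their differences. Values under 1 were raised to 1, an offset of 32 was added before log2, and arrays were quantile normalized. A probe was kept if at least 2 arrays had it above the median (28035 probes, 57.4%). The fit had 4 groups and 2 residual degrees of freedom (limma 3.58.1, R 4.3.3). It was tried on simulated data in which calls were required only for the largest added changes. That trial does not show that differences of the size seen in the members would be found. P-values were adjusted over all kept probes.

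The members and gene lists were chosen with earlier results of these data known. The 10 gene lists could not be used without probe names, so the probes named are the 4 members, and the probes most like each are given by count. The titles name the clones as separate lines, each on 1 array, so the p-values rest on a spread in which clonal and technical differences cannot be told apart. No batch is given. Arrays have no depth; their number limits the precision. Offsets, normalizations, filters, moderation, left-out clones, exchanged or pooled controls and a replicate block were tried as alternatives.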

Additional observations from a re-analysis of the deposited data

How the results depend on the processing

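Of 346 alternative values of the 4 genes, 322 kept their direction and their side of the threshold, 21 changed sign and 3 passed it where the reported value did not. The filters, the intensity trend and robust moderation left each fitted log2 value as it was, so they could not change a sign. The count of 322 therefore overstates how stable the directions were. Each reported value that changed sign lay within its SE of 0, except MYC in the Ago2 clones, which was 0.16 with the control of the other transfection. MYC in the Lin-28B comparison was 0.088 with a median shift and 0.065 without normalization. It kept its sign but moved far with the control of the other transfection (-1.82) and with pooled controls (-0.93). In the direct comparison IGF2BP3 was 0.015 with a median shift and 0.027 without normalization, and CCND2 was -0.056 with no offset.

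Leaving out each clone in turn gave, in the Lin-28B comparison, -0.27 to 0.18 for MYC and -2.05 to 0.60 for CCND2. In the direct comparison it gave -0.83 to 0.42 for MYC, -0.18 to 0.39 for CCND1, -1.26 to 1.38 for CCND2 and -0.11 to 0.11 for IGF2BP3. For the difference of effects it gave 0.95 to 2.20 for MYC, -1.62 to 1.03 for CCND2 and -0.035 to 0.19 for IGF2BP3. It gave -1.78 to -1.77 for MYC between the controls, and -1.24 to 0.085 for CCND2 in the comparison of 4 clones with both controls. The value between the controls uses no clone, so leaving out a clone could move it only through normalization. CCND2 could not be fitted with the filter on all arrays, since 1 array was below its median.

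The count of probes called in the Lin-28B comparison was 463. It was 0 with an offset of 100, the stricter filter, the other or pooled controls, 1 with cyclic loess or robust moderation, 721 with an intensity trend, 813 with no offset, and 0 to 2497 without 1 clone. The Ago2 count of 0 was 161 with an intensity trend and 0 to 64 without 1 clone. With an intensity trend the direct comparison gave 2 calls and the 4 clones against both controls 7. The difference of effects gave 1067, against 0 with an offset of 100 and 0 to 2876 without 1 clone. The controls gave 1674, against 1003 and 0 to 4125. With the replicate number as a replicate block, the Lin-28B comparison, the difference of effects and the comparison of the controls each gave 0 calls. The clone numbers do not pair the samples by any label, and the clone differences of both transfections correlated at -0.204 across probes. Among the 4 genes the replicate block left 0 calls, with CCND2 at -1.55 in the Lin-28B and -1.26 in the Ago2 comparison. The cause of these changes was not tested. The planned count of list genes by any probe was not run, because no list gene has a named probe.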
